A study of Mus musculus with 21 samples.

Results

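The lysosomal proton pump and the acid hydrolases it serves were followed as a set of 34 genes. These were picked by name for their place in the lysosome, with earlier results of these data known. All 34 were matched by symbol to the count table, which holds 27179 genes, and all 34 had enough counts to be tested. They comprise 15 genes of the pump (6 of the membrane sector V0, 8 of the cytosolic sector V1 and the accessory subunit Atp6ap1) and 19 others, namely membrane proteins and cholesterol exporters, glycosidases, lipid hydrolases with the saposin precursor, progranulin, legumain, and the transcription factors Tfeb and Tfe3. RNA was sequenced from pools of C57BL/6 mice, 3 libraries in each of 7 groups. Each heart pool was sorted into 3 macrophage populations: R1, without Ccr2 and low in MHC-II; R2, without Ccr2 but high in MHC-II; and R3, with Ccr2 and high in MHC-II. The naive groups are R1, R2 and R3 from untreated mice, and the CAWS groups are the same gates from mice given CAWS, a water-soluble extract of Candida albicans used to model Kawasaki disease. The last group is monocytes sorted from the spleens of naive mice. For age, sex, dose and the time after CAWS, no value is given in the sources used here. The 3 libraries of a group come from separate pools of animals. For each gene, the p-values below rest on a spread between libraries of a group that is shared by all 7 groups. They ignore that R1, R2 and R3 came from the same pools, and fits with the pool as a block are given as alternatives.

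The vacuolar-type proton pump uses ATP, split by its V1 sector, to drive protons through the V0 sector into the lysosome, and the low pH that results activates the hydrolases inside. Macrophages depend on this system to digest engulfed cells, lipoproteins and microbes. Many lysosomal genes carry the CLEAR element, a palindromic word around CACGTG, through which Tfeb, Tfe3 and their relative Mitf are known to drive them as a group.

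Stretches of promoter that hold this word are shown because the members are known as a shared target set of factors that bind it. Promoter windows of 300 bases (250 before to 50 after an annotated start) were found in RefSeq's GRCm38.p6 table for 27 of the 34 genes. Some of the 27 had more than 1 annotated start, which gave 34 windows in all. A gene was counted if any of its windows held the word. The word CACGTG, which reads the same on both strands, stood in the windows of 9 of these 27 genes (33.3%), against 8.09% of 27025 genes with a window. The longer palindrome TCACGTGA, which contains the shorter word, stood in 5 of 27 (18.5%), against 1.12% of all genes, and the full CLEAR consensus, 1 base longer at each end, stood in 0 of 27, against 0.370%. Below, capitals mark CACGTG, or TCACGTGA where the longer word is present, and each sequence is written 5′ to 3′ on the strand of its gene.
Atp6v0b (minus strand of chr4:117887330-117887377): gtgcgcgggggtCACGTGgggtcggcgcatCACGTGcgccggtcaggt
Atp6v0d1 (minus strand of chr8:105566050-105566079): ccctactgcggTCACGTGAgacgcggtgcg
Atp6v0e (plus strand of chr17:26676387-26676416): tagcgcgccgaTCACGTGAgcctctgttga
Atp6v1a (minus strand of chr16:44139373-44139402): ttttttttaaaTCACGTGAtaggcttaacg
Mcoln1 (plus strand of chr8:3500436-3500491): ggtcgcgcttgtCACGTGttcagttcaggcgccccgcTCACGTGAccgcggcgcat
Lamp1 (plus strand of chr8:13159088-13159163): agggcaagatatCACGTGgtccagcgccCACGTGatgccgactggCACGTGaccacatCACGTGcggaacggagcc
Gaa (plus strand of chr11:119267811-119267840): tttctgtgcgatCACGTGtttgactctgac
Gla (minus strand of chrX:134601182-134601244): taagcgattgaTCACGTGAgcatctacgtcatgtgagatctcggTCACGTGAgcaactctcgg
Lgmn (minus strand of chr12:102439124-102439153): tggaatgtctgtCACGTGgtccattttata
Lamp1 held 4 copies of the word within 61 bases before its start, and Gla held 2 copies of the longer palindrome, 227 and 194 bases before its start. A match of letters is a description of the window and does not show that a factor binds there. Grn, Npc2, Psap and Tfeb had a window without the word, and Atp6v1b2 and Atp6v0d2 were among the 7 genes with no window in the table.

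Library totals ran from 12800136 to 23006155 counts, and TMM scaling factors from 0.9093 to 1.065. The sorting genes followed the gates: mean Ccr2 was 6.58 ± 2.04 CPM (counts scaled to TMM-adjusted library sizes, mean ± SD, n = 3) in R1 of naive mice, 29.3 ± 9.25 in their R2 and 2390.1 ± 304 in their R3, and mean H2-Ab1, an MHC-II chain, was 605 ± 167, 10613 ± 976 and 12274 ± 1401 in the same order. After CAWS the R1 and R2 gates, labelled negative for the receptor, held 80.5 ± 40.5 and 231 ± 31.5 CPM of Ccr2. All 10 listed macrophage markers were detected in every group, with sums of 25229 to 26646 CPM in naive R1 and 4417 to 5527 in the monocytes. Replicates of the lysosomal genes lay close together in the heart, with a median coefficient of variation of 5.15% to 7.15% per group, and further apart in the monocytes, at 12.9%. Monocyte replicate 2 stood apart, with a mean squared log2 deviation from its group of 0.163, against 0.053 and 0.0705 for the other two monocyte libraries.

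Together the 34 genes took 2.26% to 2.75% of all counts in the 21 libraries. One gene, Psap, weighed heavily in that sum, so the other 33 were also summed without it. Their summed level was 17121 ± 243 CPM in the R1 cells of naive mice, 15676 ± 645 for R2 and 13227 ± 647 for R3. After CAWS the sums were 18750.5 ± 289.9 in R1, 16642 ± 644 in R2 and 14469 ± 702 in R3, and the monocytes held 12735 ± 996. Among macrophages the mean of this sum without Psap was highest in R1 and lowest in R3 in both treatments. Psap ran in the opposite order in naive cells, and with it included naive R1 had the lowest mean of the naive macrophage populations. The 15 pump genes alone summed to 2164 ± 78.1 CPM in naive R1, 1805 ± 82.9 in naive R3 and 2697 ± 279.5 in the monocytes, so for the pump the monocytes had the highest mean.

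**Figure D1:**
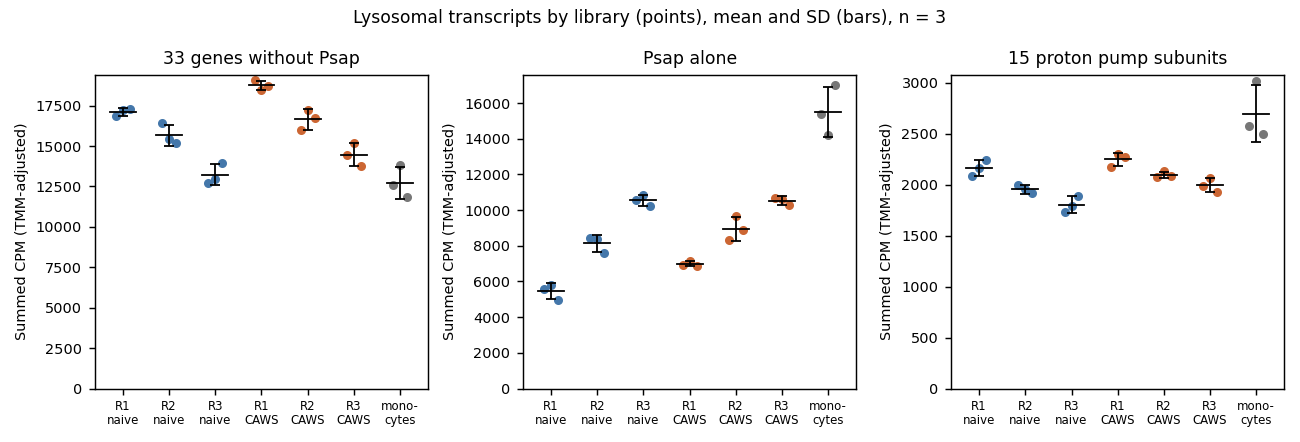
Summed CPM per library (points) with the mean and SD of 3 libraries (bars) in each of the 7 groups, for Psap, for the 33 genes without it and for the 15 pump genes. The 33-gene sum goes from 17121 CPM in naive R1 to 13227 in naive R3, while Psap is highest in the monocytes.

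Levels of different genes were compared per kilobase of the counted gene length, as CPM per kb. In naive R1 the most abundant was Psap, the precursor of the saposins that help hydrolases reach sphingolipids, at 1995 CPM per kb. Lgmn, the asparagine-cleaving protease legumain, followed at 1173, then Grn, the lysosomal growth factor precursor progranulin, at 1128, and Lamp1, a main glycoprotein of the lysosomal membrane, at 865. Within the pump, on the same scale, the accessory subunit Atp6ap1 reached 227 and the proteolipid Atp6v0b 192, whereas the stalk subunit Atp6v1g1 stood at 23.9. Of the 2 genes for the d subunit of V0, the widely used Atp6v0d1 stood at 100.5 and Atp6v0d2, the form known from osteoclasts and kidney, at 4.35. Gla, the alpha-galactosidase that clears globotriaosylceramide, was the least abundant of the 34, at 3.64.

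Naive populations were compared first. In R3 the lysosomal genes were mostly lower than in R1: 18 of 34 were lower and 3 higher (edgeR quasi-likelihood test, Benjamini-Hochberg adjusted p under 0.05), where 23.1% of all 13275 tested genes were called, 10.7% lower and 12.5% higher. The median log2 fold change was -0.29 over the 34 genes and 0.026 over all genes. R2 lay between: 3 genes were lower and 1 higher than in R1 (7.13% of all genes called, 3.25% lower and 3.88% higher), and against R2 the R3 cells were lower in 6 and higher in 2 (12.4% of all genes called, 5.77% lower and 6.63% higher). Group means stepped down from R1 over R2 to R3 in 17 of the 34, an order seen in 22.6% of all genes, and stepped up in that order in 4 (Atp6v0e, Npc2, Psap and Tfeb), against 25% of all genes. With bulk RNA from sorted cells, fewer cells expressing a gene and less RNA per cell cannot be told apart.

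Of the pump, 6 of 15 subunits were lower in R3 than in R1 and 0 higher, with a median log2 fold change of -0.25. Atp6v0a1 (gene ID 11975, chromosome 11, 101009422 to 101063719, GRCm38.p6 as for all gene positions), the a subunit through which protons pass, measured 238, 226 and 246 CPM in naive R1, 203, 173 and 188 in R2 and 132, 132 and 169.7 in R3. The 3 groups did not overlap, and the log2 fold change of R3 against R1 was -0.71 (SE 0.11, adjusted p = 3.62e-05). Atp6v1a, the catalytic subunit that splits ATP, measured 235, 241 and 263 CPM in R1 and 155, 134 and 192 in R3. Every R3 library was below every R1 library, and the log2 fold change was -0.62 (SE 0.12, adjusted p = 0.00038). Atp6v0d2 measured 10.6, 9.13 and 13 CPM in R1, 8.94, 5.63 and 8.64 in R2 and 4.92, 1.83 and 6.02 in R3. The log2 fold change of R3 against R1, the widest among the 34 genes in this contrast, was -1.37 (SE 0.29, adjusted p = 0.00153), in a scarce transcript whose R3 libraries varied by 51% of their mean. The proteolipids Atp6v0b (-0.47) and Atp6v0c (-0.26) and the stalk subunit Atp6v1d (-0.39) were lower as well, while the nucleotide-binding subunit Atp6v1b2 gave -0.049 (SE 0.083, adjusted p = 0.726). With the pool as a block, Atp6v0b had an adjusted p of 0.0616 and Atp6v0c of 0.0527. Atp6v0c also has a pseudogene copy in the table, with which its reads may be shared.

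In the lysosomal membrane, Lamp1, Lamp2 and the calcium channel Mcoln1 were lower in R3. Lamp1 (gene ID 16783, chromosome 8, 13159161 to 13175338) measured 1962, 1951 and 1941 CPM in R1, 1633, 1569.9 and 1591 in R2 and 1247, 1348 and 1452 in R3, 3 ranges without overlap, and the log2 fold change of R3 against R1 was -0.53 (SE 0.080, adjusted p = 3.05e-05). Lamp2, which is needed for autophagosomes and chaperoned proteins to reach the lysosome, measured 1299, 1404 and 1435 CPM in R1, 1409.9, 1344 and 1306 in R2 and 963, 928 and 997 in R3. Here R1 and R2 overlapped and R3 stood below both, with log2 fold changes of -0.52 (SE 0.087, adjusted p = 0.000115) against R1 and -0.49 (SE 0.087, adjusted p = 0.000465) against R2. Mcoln1 gave a log2 fold change of -0.69 (SE 0.15, adjusted p = 0.00133) for R3 against R1. The cholesterol exporters did not pass the test: Npc1, the membrane transporter, gave -0.13 (SE 0.11, adjusted p = 0.441), its reads uncertain for an overlap with Rmc1, and Npc2, its soluble partner, gave 0.29 (SE 0.11, adjusted p = 0.0707).

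Among 6 glycosidases, 4 were lower in R3 than in R1 (Gaa, Hexa, Neu1 and Man2b1), Gla was higher, and Gusb gave -0.11 (SE 0.085, adjusted p = 0.368). Gaa, which breaks down glycogen, measured 176, 199.6 and 207 CPM in R1, 183, 172 and 186 in R2 and 125, 139.6 and 155 in R3, with -0.48 (SE 0.11, adjusted p = 0.00296) for R3 against R1. Hexa, the alpha chain of beta-hexosaminidase, gave -0.45 (SE 0.11, adjusted p = 0.0055), and its reads may be shared with Tmem202, which it overlaps. Gla (gene ID 11605, chromosome X, 134588169 to 134601005) went the other way, with 10.2, 9.06 and 13.9 CPM in R1, 10.6, 10.6 and 9.52 in R2 and 18.6, 16 and 17.1 in R3. All R3 libraries lay above those of R1 and R2, with log2 fold changes of 0.65 (SE 0.16, adjusted p = 0.00521) and 0.75 (SE 0.16, adjusted p = 0.00282).

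The lipid hydrolases Lipa (acid lipase, -0.31), Asah1 (acid ceramidase, -0.27) and Smpd1 (acid sphingomyelinase, -0.50) were lower in R3 than in R1 on the log2 scale, where Asah1 shares 8464 bases of its span with Frg1. Psap (gene ID 19156, chromosome 10, 60277628 to 60302600), in contrast, was higher in R3. It measured 5605, 5789 and 4947 CPM in R1, 8444, 8397 and 7585 in R2 and 10579, 10825 and 10232 in R3. The ranges did not overlap, and on the log2 scale R2 exceeded R1 by 0.58 (SE 0.086, adjusted p = 0.000113), R3 exceeded R1 by 0.95 (SE 0.087, adjusted p = 4.29e-08), and R3 exceeded R2 by 0.37 (SE 0.086, adjusted p = 0.0054). Grn (gene ID 14824, chromosome 11, 102430507 to 102436809) was graded in the opposite direction, with 2598, 2540.5 and 2755 CPM in R1, 2067, 1761 and 1810.3 in R2 and 1579, 1515 and 1746 in R3. R2 and R3 both stood below R1 without overlap, with log2 fold changes of -0.49 (SE 0.093, adjusted p = 0.00151) and -0.71 (SE 0.094, adjusted p = 6.58e-06). Lgmn gave 2252, 2294 and 2048 CPM in R1, 2305, 2164 and 2025 in R2 and 1538, 1658 and 1695 in R3, so that R1 and R2 overlapped and R3 lay below, with a log2 fold change of -0.43 (SE 0.10, adjusted p = 0.00377) against R1. Progranulin and prosaposin are known to bind each other and travel to the lysosome together.

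The transcription factor Tfeb, a master regulator of lysosomal genes, was itself higher in R3, with 48.3, 54.8 and 58.5 CPM in R1, 59.6, 78.5 and 61.3 in R2 and 76.9, 81.6 and 64.8 in R3. R3 libraries were all above R1, with a log2 fold change of 0.47 (SE 0.13, adjusted p = 0.00818), and overlapped with R2. Its relative Tfe3 gave -0.12 (SE 0.11, adjusted p = 0.514). RNA levels of these factors say nothing of how much protein is in the nucleus, where they act.

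**Figure D2:**
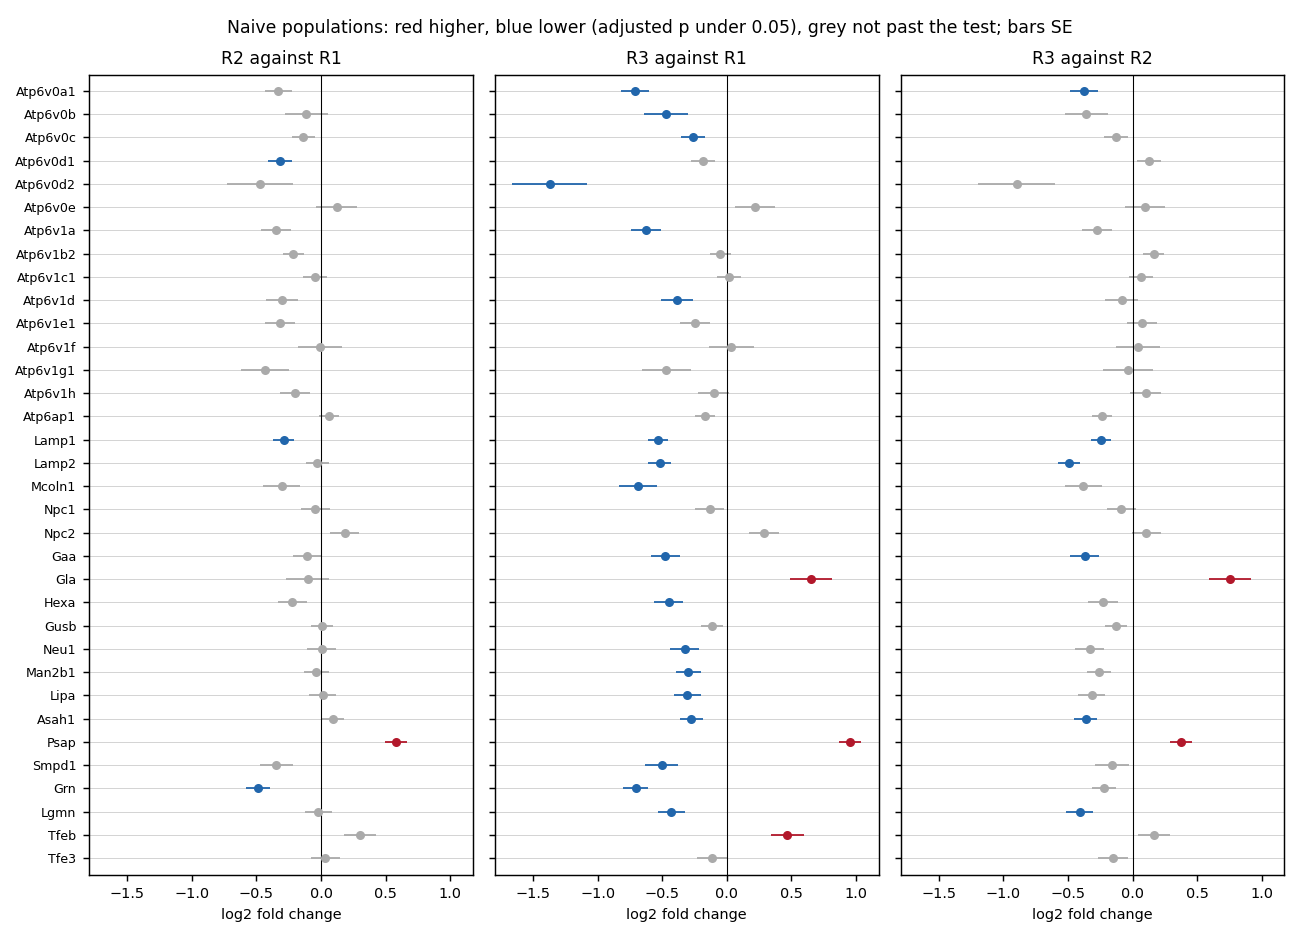
Log2 fold change with SE (bars) of each of the 34 genes between naive populations, with genes past the test in red (higher) or blue (lower). In R3 against R1, 18 points are blue and 3 (Gla, Psap and Tfeb) are red.

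Of the 21 calls between R3 and R1, 12 kept adjusted p under 0.05 in all 12 alternative fits: Atp6v0a1, Atp6v0d2, Atp6v1a, Lamp1, Lamp2, Mcoln1, Gaa, Gla, Hexa, Psap, Grn and Lgmn. Leaving out 1 library ended the call of the other 9 at least once. Smpd1 was lost without naive R1 replicate 2 (adjusted p = 0.0612), and Tfeb without naive R1 replicate 1 (0.0558) or naive R3 replicate 2 (0.052). Atp6v0b, Atp6v0c, Atp6v1d, Neu1, Man2b1, Lipa and Asah1 were each lost without 3 or more of the 6 libraries, at adjusted p from 0.0501 (Asah1 without naive R3 replicate 2) to 0.219 (Atp6v1d without naive R1 replicate 3). Of the R2 calls, Psap and Grn were kept in all alternatives. Those of Lamp1 (-0.29, SE 0.080, adjusted p = 0.0283) and Atp6v0d1 (-0.31, SE 0.093, adjusted p = 0.0402) were lost without any 1 of the 6 libraries, at adjusted p of 0.0703 to 0.122 and 0.0792 to 0.181. Without any 1 of these libraries 2 of the 34 genes were called. With the pool as a block, Atp6v0a1 passed between R2 and R1 (adjusted p = 0.0459) and Atp6v0d1 did not (0.051).

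Between R3 and R2, Lamp2, Asah1, Gla and Psap were kept in all alternatives. Atp6v0a1 (-0.38, SE 0.11, adjusted p = 0.0231), Lamp1 (-0.24, SE 0.080, adjusted p = 0.0481), Gaa (-0.37, SE 0.11, adjusted p = 0.0314) and Lgmn (-0.41, SE 0.10, adjusted p = 0.0109) were each lost without naive R2 replicate 1 (adjusted p = 0.112, 0.138, 0.087 and 0.0593 in that order) and without naive R3 replicate 1 (0.121, 0.207, 0.158 and 0.0595). Atp6v0a1, Lamp1 and Gaa were lost as well without naive R2 replicate 3 (0.0656, 0.107 and 0.105) or naive R3 replicate 2 (0.118, 0.117 and 0.0836), and Lamp1 and Lgmn without naive R2 replicate 2 (0.116 and 0.0516). The 34 genes then gave 4 calls without naive R2 replicate 1 or naive R3 replicate 1 and 5 without naive R2 replicate 3 or naive R3 replicate 2. With the pool as a block Atp6v0d2, Atp6ap1 and Neu1 also passed, at adjusted p of 0.0203, 0.0431 and 0.0174.

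Markers of other cells moved with the same contrast. The 8 listed conventional dendritic cell markers summed to 8.75 to 10.9 CPM in naive R1 (7 of 8 detected, Ccr7 at 0) and 16.7 to 21.3 in R2. In R3 they summed to 276 to 540.2, where all 8 were detected and 6 of 8 were higher than in R1. The 10 macrophage markers summed to 25229 to 26646 CPM in R1 and 18878 to 20636 in R3, with 4 of 10 lower. Classical monocyte markers, 8 of 8 detected in both, summed to 5538 to 6982 CPM in R1 and 3826 to 4605 in R3, with 3 higher and 1 lower. Their sum fell although 6 of the 8 had a positive log2 fold change (median 2.01), so it does not follow most of the list. The 9 heart muscle markers, all detected, summed to 53 to 73.3 CPM in R1 and 126 to 151 in R3. The 6 osteoclast markers summed to 183 to 301 CPM in R1 and 74.1 to 393 in R3, with Calcr and Oscar at 0 in both. The 6 fibroblast markers, all detected in both, ran from 14.1 to 23.7 in R1 and from 14.2 to 211 in R3, where replicate 2 held the highest value. Without naive R3 replicate 2, 14 of the 34 lysosomal genes were called against R1, and without replicate 3, the one highest in osteoclast markers, 20 were. The number was also 14 without naive R3 replicate 1 or naive R1 replicate 3. The part of these cells in the lysosomal differences was not tested.

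With CAWS most of these genes did not pass the test, and those that passed mostly rose. In R1, 3 of 34 rose and 0 fell (8.94% of all genes called, 6.07% higher and 2.87% lower). In R2, 3 rose and 0 fell (10.3% of all genes called, 6.79% higher and 3.5% lower), and in R3, 7 rose and 1 fell (15% of all genes called, 6.7% higher and 8.29% lower). The R2 count moved with the fit: with only the groups compared 10 rose and 4 fell, with DESeq2 4 rose and 2 fell, and with the replicate number as a block 5 rose and 1 fell. Median log2 fold changes over the 34 genes were 0.096 in R1, 0.12 in R2 and 0.13 in R3, against 0.026, 0.023 and -0.059 over all genes. The shares of members called were near or below those of all genes in R1 and R2. Atp6v1b2 and Grn were higher in all 3 populations, 2 of 34, where 1.88% of all genes were.

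Atp6v1b2 (gene ID 11966, chromosome 8, 69088736 to 69113718), the B subunit found in the pumps of most cells, measured 202, 200.5 and 202 CPM in naive R1 and 243, 246 and 267 after CAWS. In R2 it measured 176, 175 and 171 CPM in naive cells and 219, 225 and 229 after CAWS, and in R3 192, 191 and 202 and 232, 269.6 and 263. The groups did not overlap in any population, and the log2 fold changes were 0.32 (SE 0.083, adjusted p = 0.0167) in R1, 0.37 (SE 0.083, adjusted p = 0.00584) in R2 and 0.39 (SE 0.083, adjusted p = 0.00286) in R3. Part of its span (503 bases) overlaps Slc18a1, so that reads may be shared. The R2 and R3 calls held in all alternatives. The R1 call was lost without naive R1 replicate 1, 2 or 3 (adjusted p = 0.067, 0.077 and 0.0685), without CAWS R1 replicate 2 or 3 (0.0636 and 0.0844) and with no filter on low counts (0.0642).

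Grn measured 3366, 3079 and 3348 CPM in CAWS R1, 2139, 2667 and 2527 in CAWS R2 and 1942, 2104 and 2013 in CAWS R3, each library above all naive libraries of its population. Its log2 fold changes were 0.31 (SE 0.093, adjusted p = 0.0391) in R1, 0.38 (SE 0.093, adjusted p = 0.0112) in R2 and 0.32 (SE 0.093, adjusted p = 0.022) in R3. The call in R1 was lost without any 1 of its 6 libraries, at adjusted p of 0.0695 to 0.159, and with no filter (0.0608). Of the 34 genes, 1 was called in R1 without naive R1 replicate 1, 2 or 3 or CAWS R1 replicate 3, 2 without CAWS R1 replicate 1 and 0 without CAWS R1 replicate 2. The Grn call in R2 was lost without naive R2 replicate 2 (0.0782) or 3 (0.0574) or CAWS R2 replicate 2 (0.0955), and the one in R3 without naive R3 replicate 1 (0.0718) or 2 (0.093) or CAWS R3 replicate 2 (0.102).

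**Figure D3:**
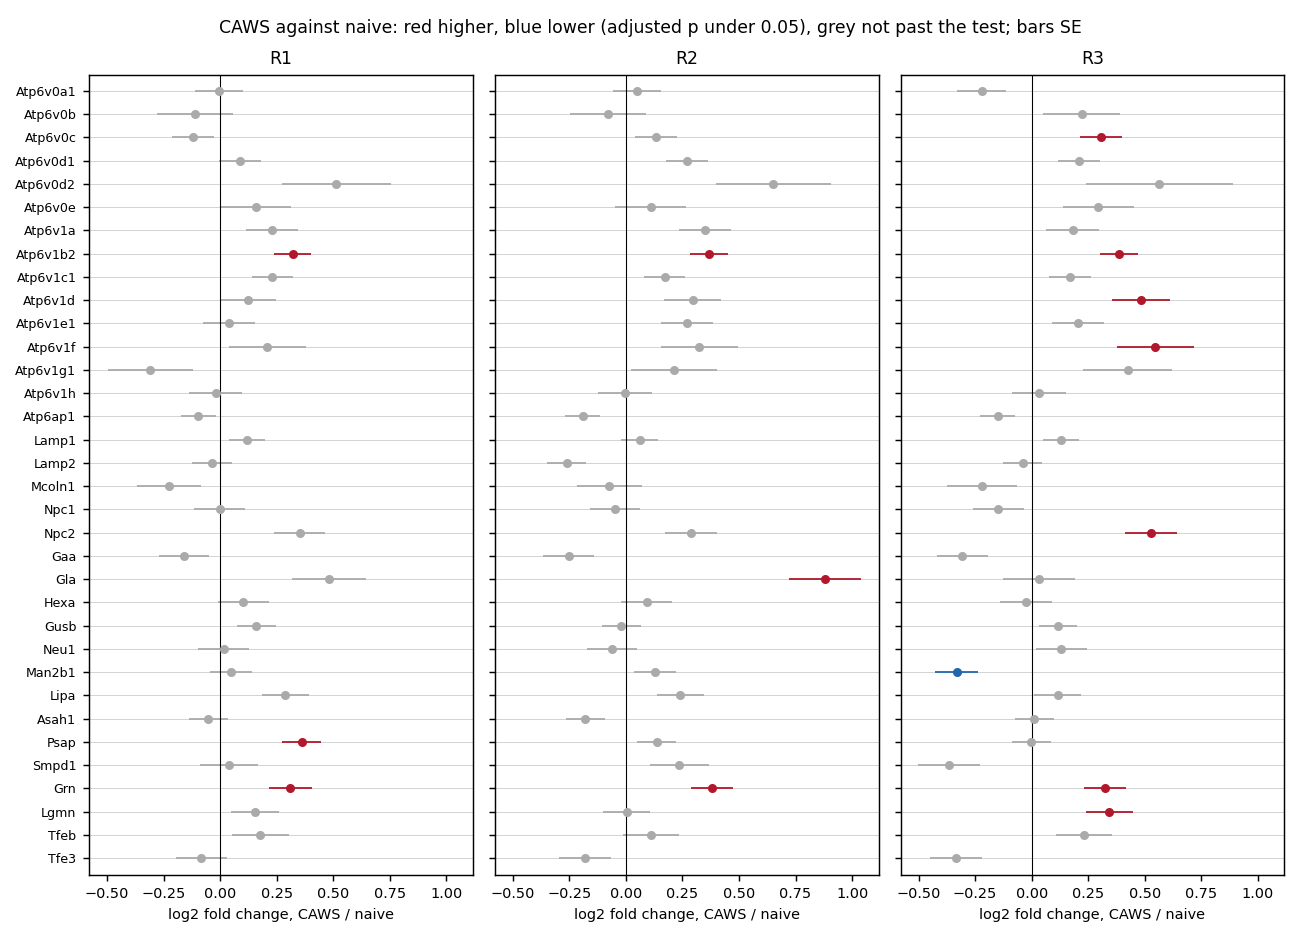
Log2 fold change with SE (bars) of each of the 34 genes after CAWS in R1, R2 and R3, with genes past the test in red (higher) or blue (lower). Atp6v1b2 and Grn are red in all 3 panels, and Man2b1 in R3 is the one blue point.

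In R3 the other pump genes that rose were the proteolipid Atp6v0c (0.31, SE 0.092, adjusted p = 0.0282) and the V1 subunits Atp6v1d (0.48, SE 0.13, adjusted p = 0.0125) and Atp6v1f (0.55, SE 0.17, adjusted p = 0.0346), making 4 of 15 subunits. Atp6v1f measured 46.7, 48.1 and 50.7 CPM in naive R3 and 75.8, 72.8 and 63.9 after CAWS, without overlap. Npc2 (gene ID 67963, chromosome 12, 84754559 to 84773112), which hands cholesterol to Npc1, measured 965, 991 and 992 CPM in naive R3 and 1367, 1584 and 1300.4 after CAWS, a log2 rise of 0.53 (SE 0.11, adjusted p = 0.00302) that held in all alternatives. Lgmn rose from 1538, 1658 and 1695 CPM to 2121, 2223 and 1861, by 0.34 (SE 0.10, adjusted p = 0.0289), and the CAWS R3 range overlapped that of naive R1. Man2b1, a lysosomal alpha-mannosidase, fell from 1554, 1509.6 and 1695 CPM to 1209.9, 1227 and 1343, a log2 fold change of -0.33 (SE 0.094, adjusted p = 0.0202).

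Leaving out libraries ended most of these R3 calls. Without naive R3 replicate 1 the adjusted p was 0.0972 for Atp6v0c, 0.0515 for Atp6v1d, 0.0968 for Atp6v1f and 0.107 for Lgmn. Without CAWS R3 replicate 1 it was 0.0613 for Atp6v0c, 0.0562 for Atp6v1d, 0.109 for Atp6v1f, 0.0722 for Lgmn and 0.148 for Man2b1. Without CAWS R3 replicate 2 it was 0.0685 for Atp6v0c, 0.111 for Atp6v1f, 0.145 for Lgmn and 0.0908 for Man2b1. With no filter on low counts Man2b1 had 0.0507. Without naive R3 replicate 2 the adjusted p was 0.0605 for Atp6v0c, 0.0815 for Atp6v1f and 0.0615 for Lgmn, without naive R3 replicate 3 it was 0.0513 for Atp6v0c, 0.0629 for Atp6v1f and 0.0882 for Man2b1, and without CAWS R3 replicate 3 it was 0.0565 for Atp6v0c. Of the 34 genes 3 were called without naive R3 replicate 1, CAWS R3 replicate 1 or CAWS R3 replicate 2, 4 without naive R3 replicate 2 and 5 without naive R3 replicate 3.

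In R2, Gla was the gene with the widest rise, from 10.6, 10.6 and 9.52 CPM in naive cells to 19.6, 16.8 and 20.2 after CAWS. The log2 fold change was 0.88 (SE 0.16, adjusted p = 0.000799), a 1.84-fold difference that held in all alternatives. In R1, Gla measured 10.2, 9.06 and 13.9 CPM in naive cells and 17.5, 14.7 and 13.8 after CAWS, and the groups overlapped (0.48, SE 0.16, adjusted p = 0.0698); without naive R1 replicate 3 it passed, at 0.0277. In R3 it measured 18.6, 16 and 17.1 CPM in naive cells and 16.6, 18.9 and 17.4 after CAWS, with 0.032 (SE 0.16, adjusted p = 0.917). The naive R3 values lay within the joint range of the CAWS R1 and R2 libraries, but not all within the range of either group alone. The CAWS effect on Gla was smaller in R3 than in R2 by a log2 difference, R3 minus R2, of -0.85 (SE 0.23, adjusted p = 0.0477), which was lost in 16 of 18 alternatives at adjusted p of 0.0527 to 0.178, among them the pool block at 0.0642. Psap rose in R1, from 5605, 5789 and 4947 CPM to 6947, 7144 and 6882, by 0.36 (SE 0.086, adjusted p = 0.0111), lost without naive R1 replicate 3 (0.084) or CAWS R1 replicate 2 (0.0579). In R3 it gave -0.0011 (SE 0.086, adjusted p = 0.997), and the difference between these 2 effects was -0.36 (SE 0.12, adjusted p = 0.15).

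Apart from Gla, no member passed the test of a difference between CAWS effects. Of the 34 genes 0 passed between R2 and R1 (0.0527% of all genes called, 0.0377% higher and 0.0151% lower) and 0 between R3 and R1 (2.26% of all genes called, 0.0979% higher and 2.16% lower). Between R3 and R2, 1 passed (2.33% of all genes called, 0.0979% higher and 2.23% lower). At an unadjusted p under 0.05 these numbers were 0, 5 and 4, and DESeq2 called 0, 1 and 2. Genes past the test in R3 and not in R1 or R2 are therefore not shown to respond differently there.

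**Figure D4:**
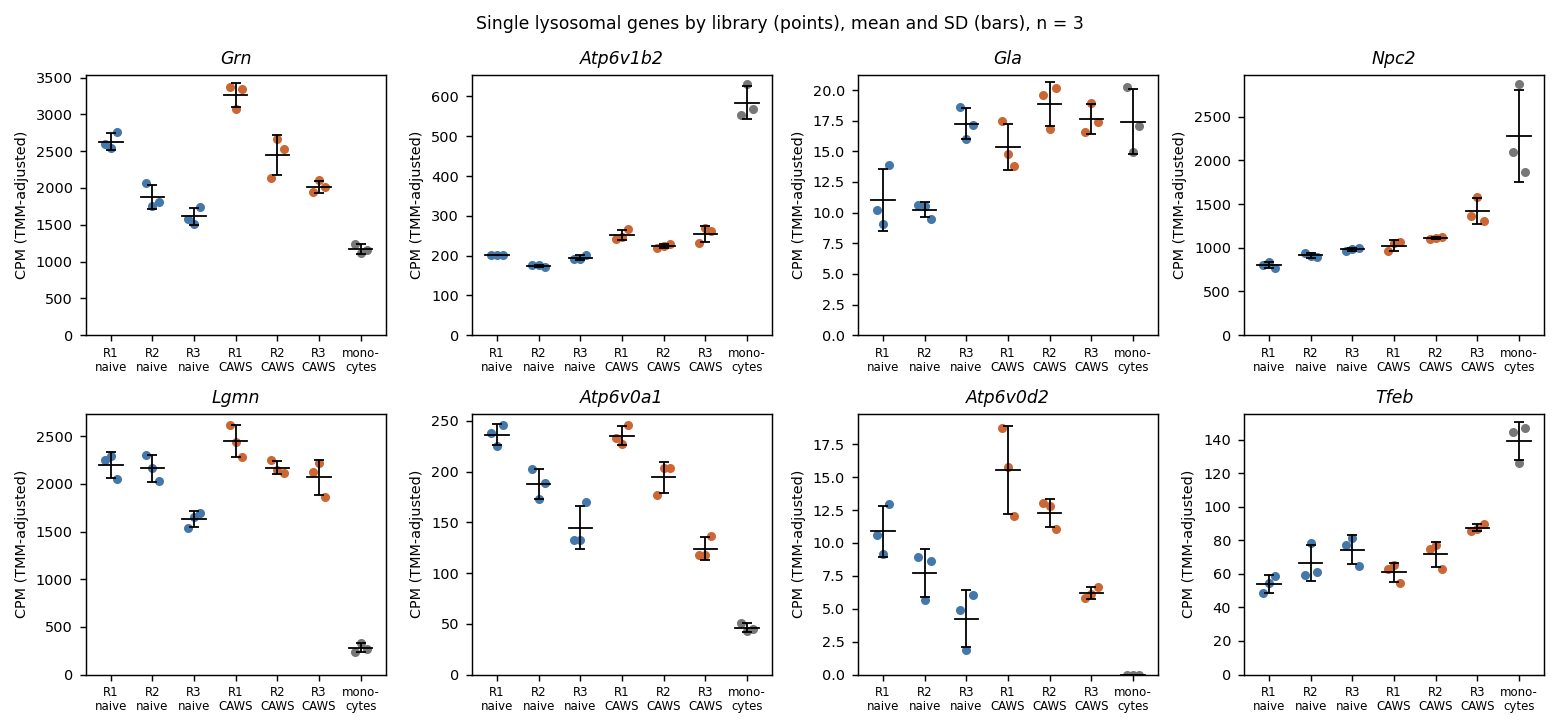
CPM per library (points) with mean and SD (bars, n = 3) in each of the 7 groups for Grn, Atp6v1b2, Gla, Npc2, Lgmn, Atp6v0a1, Atp6v0d2 and Tfeb, with all axes starting at 0. Grn and Atp6v1b2 step up after CAWS in each population, and Atp6v0d2 is at 0 in the 3 monocyte libraries.

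Several members showed no call with CAWS in any population. Atp6v0a1 gave -0.0059 ± 0.11, 0.049 ± 0.11 and -0.22 ± 0.11 in R1, R2 and R3 on the log2 scale (± SE), with adjusted p of 0.986, 0.843 and 0.182. Atp6v0d2 measured 18.7, 15.8 and 12 CPM in CAWS R1, 13, 12.8 and 11.1 in CAWS R2 and 5.78, 6.14 and 6.67 in CAWS R3, with log2 fold changes of 0.51 ± 0.24, 0.65 ± 0.25 and 0.57 ± 0.32 and adjusted p of 0.207, 0.113 and 0.255. Tfeb gave 0.18 ± 0.13, 0.11 ± 0.12 and 0.23 ± 0.12, with adjusted p of 0.432, 0.649 and 0.224. The median coefficient of variation between replicates given above limits how small a change these 3 libraries per group could show.

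Beside these effects, dendritic cell markers summed to 20.3 to 52.1 CPM in CAWS R1 and 122 to 335 in CAWS R2, with 4 and 6 of 8 higher than in naive cells, and to 225 to 403 in CAWS R3, all 8 detected in each. NK cell markers summed to 0.372 to 2.07 CPM in naive R1 (Ncr1, Gzma and Eomes at 0) and 5.74 to 21.6 in CAWS R1, and to 3.13 to 3.43 and 14.6 to 33.4 in R2, where Eomes was at 0 after CAWS. Classical monocyte markers summed to 5538 to 6982 and 3779.9 to 4898 CPM in R1, 2319 to 3020.0 and 2385 to 2466 in R2, and 3826 to 4605 and 4338 to 5017 in R3, naive before CAWS, with all 8 detected. Of these 8, 2 were higher and 0 lower in CAWS R1, 5 and 0 in CAWS R2, and 2 and 1 in CAWS R3. Their log2 fold changes were positive in 6, 7 and 7 of the 8, with medians of 1.60, 3.14 and 0.83. The sums in R1 and R2 therefore do not follow most of the list. Endothelial markers, all 6 detected, summed to 10.6 to 12.4 and 20.2 to 32.4 CPM in R1, to 11.1 to 15.6 and 27.1 to 30.0 in R2 and to 13.2 to 23.3 and 23.6 to 26.5 in R3, with 2 of 5 tested higher in R1 and in R2 and 0 in R3. Osteoclast markers summed to 183 to 301 and 152 to 269 CPM in R1 (2 of 4 tested higher), 114 to 262 and 122 to 202 in R2 (2 higher) and 74.1 to 393 and 40.7 to 70.2 in R3 (1 lower), with Calcr at 0 in every group and Oscar at 0 in all but CAWS R1. Heart muscle markers, 4 of 9 higher in CAWS R1 and 2 of 9 lower in CAWS R3, ran from 93 to 109.8 and 67.3 to 103 CPM there. Their part in the lysosomal changes was not tested.

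Against splenic monocytes the lysosomal genes differed in both directions. Naive R1 was higher in 16 of 34 and lower in 10 (63.3% of all genes called, 32.5% higher and 30.8% lower), naive R2 higher in 15 and lower in 13 (63.6% of all genes called, 33.1% and 30.5%), and naive R3 higher in 11 and lower in 15 (58.9% of all genes called, 31.9% and 27.1%). Of the 15 pump genes 3, 2 and 2 were higher and 6, 9 and 10 lower in R1, R2 and R3. Of the 19 others 13, 13 and 9 were higher and 4, 4 and 5 lower. Without monocyte replicate 2 the calls among the 34 numbered 27, 26 and 25.

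Genes higher in macrophages than in monocytes included legumain, the a1 and d2 subunits and 4 of 6 glycosidases (Gaa, Hexa, Gusb and Man2b1) in each population. Lgmn measured 239.9, 334 and 273 CPM in the monocytes against at least 1538 in every heart library, and R1, R2 and R3 exceeded monocytes by 2.96 ± 0.11, 2.94 ± 0.11 and 2.53 ± 0.11 on the log2 scale (± SE). Its adjusted p ranged from 7.01e-16 in R1 to 1.21e-14 in R3. Atp6v0a1 measured 50.9, 42.6 and 45 CPM in the monocytes and was 5.12-fold higher in R1, 4.07-fold in R2 and 3.14-fold in R3 (adjusted p up to 3.78e-11). Gaa was higher by 1.59 ± 0.12, 1.48 ± 0.12 and 1.11 ± 0.12 and Grn by 1.17 ± 0.095, 0.68 ± 0.094 and 0.46 ± 0.094. Atp6v0d2 had 0 counts in all monocyte libraries. Against a floor of 3 counts over that group, or 0.0624 CPM, it was at least 174-fold higher in the R1 cells of naive mice, at least 124-fold higher in R2 and at least 68.2-fold higher in R3. Hexa, Gusb, Man2b1, Lipa and Tfe3 also stood above the monocytes in all 3 populations. Of the other glycosidases, Gla was lower than in monocytes in R1 (-0.67, SE 0.16, adjusted p = 0.00124) and R2 (-0.77, SE 0.16, adjusted p = 0.000268) and Neu1 in R3 (-0.38, SE 0.11, adjusted p = 0.00617), all on the log2 scale.

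Monocytes in turn exceeded the macrophages in prosaposin, the cholesterol carrier and much of the pump. Psap measured 15361, 14195 and 16995 CPM in the monocytes, above every heart library, and R1, R2 and R3 were lower, with log2 fold changes of -1.51 ± 0.088, -0.93 ± 0.087 and -0.56 ± 0.086. Npc2 measured 2099, 2875 and 1870.5 CPM, with replicate 2 the highest, and the macrophages were lower, with -1.50 ± 0.12, -1.32 ± 0.12 and -1.22 ± 0.12. Atp6v1b2 measured 554, 632 and 568 CPM, more than in any heart library of either treatment, with -1.54 ± 0.084, -1.75 ± 0.084 and -1.58 ± 0.084 for the naive populations. Tfeb measured 144, 126 and 147 CPM and the macrophages were lower, with -1.37 ± 0.13, -1.07 ± 0.12 and -0.90 ± 0.12. Atp6v0d1, Atp6v0e, Atp6v1e1, Atp6v1f and Atp6v1h were lower in all 3 macrophage populations as well. For the small subunits the monocyte libraries disagreed: Atp6v1f measured 70.9, 123 and 65.6 and Atp6v1g1 24.6, 43 and 23.7 CPM. Without monocyte replicate 2, Atp6v1g1 lost its calls (adjusted p = 0.0865 in R2 and 0.064 in R3), as did Atp6v1h in R1 (0.134), Npc1 in R2 (0.128) and Smpd1 in R3 (0.0535), while Atp6v1a and Lamp1 passed in R1 (0.0368 and 0.0489) and Asah1 in R3 (0.0115). Neutrophil markers summed to 358 to 546 CPM in the monocytes, with all 10 detected, and to 45 to 49.1 in naive R1, with Ly6g, Elane, Ngp and Camp at 0, and their part was not tested.

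**Figure D5:**
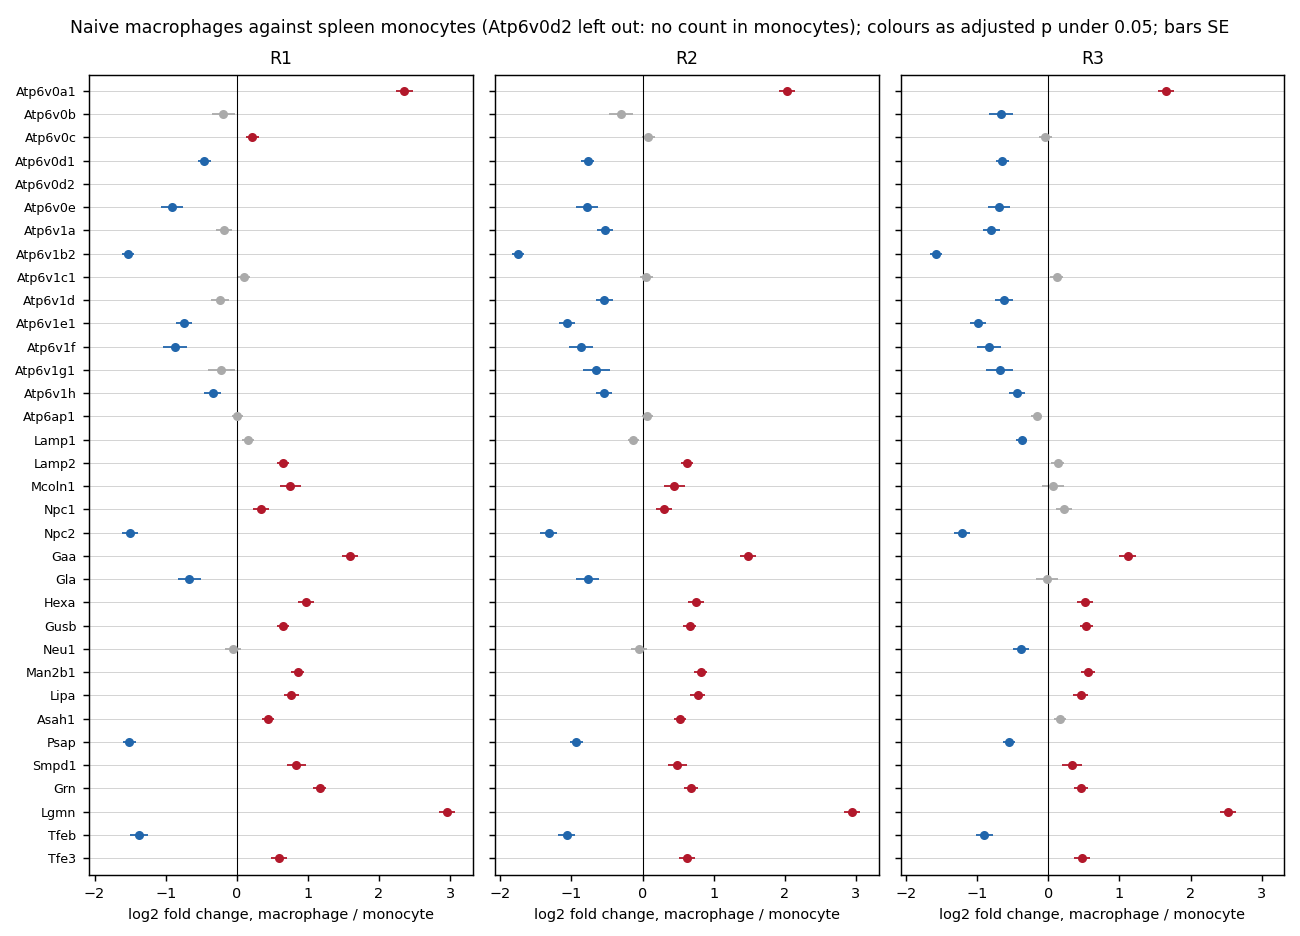
Log2 fold change with SE (bars) of each gene in naive R1, R2 and R3 against splenic monocytes, with genes past the test in red (higher) or blue (lower). Lgmn, Atp6v0a1 and Gaa lie far to the right in all 3 panels and Atp6v1b2, Npc2, Tfeb and Psap to the left.

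The rest of the lysosomal system was read from fixed lists. Of 5 further pump subunits with enough counts, of 12 listed, Tcirg1 rose with CAWS in every population. It encodes the a3 subunit, an alternative to Atp6v0a1 that is known from osteoclasts and secretory lysosomes. Tcirg1 measured 68.6 ± 4.71, 88.9 ± 3.06 and 101 ± 5.88 CPM (mean ± SD, n = 3) in naive R1, R2 and R3, and 114 ± 15.7, 127 ± 4.90 and 143 ± 5.91 after CAWS. Its log2 fold changes were 0.73 (SE 0.11, adjusted p = 0.000164), 0.51 (SE 0.11, adjusted p = 0.00286) and 0.50 (SE 0.11, adjusted p = 0.0026). Between naive populations it was higher in R3 than in R1, by 0.56 (SE 0.11, adjusted p = 0.000507), where Atp6v0a1 was lower. Per kilobase, Atp6v0a1 stood at 58.7 and Tcirg1 at 20.8 CPM in naive R1, at 35.9 and 30.6 in naive R3, at 30.8 and 43.4 in CAWS R3, and at 11.5 and 49.7 in the monocytes. The order of the a subunits thus differed between naive R1 and the monocytes. The a2 subunit Atp6v0a2 was higher in R3 than in R1 as well, by 0.80 (SE 0.16, adjusted p = 0.00053).

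The shares of all genes called, against which the following counts are read, were 8.94%, 10.3% and 15% with CAWS in R1, R2 and R3, 23.1% for naive R3 against R1 and 12.4% for naive R3 against R2. Of 26 genes listed as other acid hydrolases, CAWS raised 3 and lowered 1 in R1, raised 2 and lowered 1 in R2, near that share, and raised 5 and lowered 1 in R3. Acp5, the tartrate-resistant acid phosphatase, measured 14.3 ± 3.37, 17.7 ± 2.04 and 22.3 ± 1.75 CPM in the naive R1, R2 and R3 cells and 41.3 ± 6.20, 84.5 ± 6.82 and 70.2 ± 3.93 after CAWS, and rose by 1.52 ± 0.17, 2.25 ± 0.16 and 1.65 ± 0.16 on the log2 scale (adjusted p up to 6.87e-06). Arsb, which removes sulfate from dermatan sulfate, fell in the same comparisons, with -1.05 ± 0.12, -0.83 ± 0.12 and -1.42 ± 0.12 (adjusted p up to 8.48e-05). Between R3 and R1 of naive mice 10 of these 26 listed genes were lower and 4 higher. Galc (-0.86) and Tpp1 (-0.63) led below and Gm2a (1.44), which encodes an activator protein rather than a hydrolase, led above. Against R2, R3 was lower in 10 and higher in 2.

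Of 19 other lysosomal membrane proteins, 9 were lower in R3 than in R1 and 0 higher, where 10.7% of all genes were lower, among them Cd63 (165 ± 13.4 and 76.1 ± 21.6 CPM, log2 fold change -1.12, SE 0.14, adjusted p = 2.24e-06) and the sialomucin Cd164 (-1.05, SE 0.11, adjusted p = 4.68e-07). Cd164 also fell with CAWS in all 3 populations, with log2 fold changes of -0.71 ± 0.11, -0.58 ± 0.11 and -0.38 ± 0.11 (adjusted p up to 0.0268). Of 16 genes for nutrient sensing and the MiT factors, 4 were lower in R3 than in R1 and 0 higher. Of all genes 23.1% were called, 10.7% lower and 12.5% higher. Mitf measured 56.4 ± 5.16 CPM in R1 and 32.5 ± 4.53 in R3, with -0.80 (SE 0.14, adjusted p = 0.000141), and Tfec measured 26.7 ± 4.14 and 4.69 ± 3.44, with -2.54 (SE 0.30, adjusted p = 1.61e-06), so that 2 relatives of Tfeb stood lower in R3 while Tfeb stood higher. With CAWS, 0, 1 and 3 of these 16 genes rose in R1, R2 and R3 and 0 fell, Mitf by 0.46 ± 0.13 in R2 and 0.54 ± 0.14 in R3. Of 12 sorting genes 2 rose in each population, where 6.07%, 6.79% and 6.7% of all genes rose in R1, R2 and R3, and 1 fell in R3. Igf2r, the large mannose 6-phosphate receptor that carries new hydrolases to the lysosome, was among those that rose. It measured 0.905 ± 0.355, 0.472 ± 0.632 and 3.20 ± 1.85 CPM in the naive cells and 8.23 ± 4.18, 10.9 ± 3.44 and 9.86 ± 3.02 after CAWS, with log2 fold changes of 3.14 ± 0.57, 4.40 ± 0.59 and 1.67 ± 0.45 (adjusted p up to 0.0177). Since the strand setting is unknown, its reads cannot be told apart from those of its antisense partner Airn. Of 16 autophagy genes, CAWS raised 1 in R1 (Sqstm1, 0.33), 0 in R2 and 1 in R3 (Gabarap, 0.43) and lowered 0, shares below the 8.94%, 10.3% and 15% of all genes called, and 5 were lower in naive R3 than in R1.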

How the data were processed

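RNA from 21 libraries of sorted mouse cells in 7 groups of 3 was analysed. The authors deposited raw gene counts, for which the submitters' processing notes name featureCounts and build mm10. Strand setting, annotation, aligner and tool version: not given in the sources used here. Overlapping genes are therefore uncertain. Per the labels' protocols, RNA came from an RNeasyPlus kit and libraries from a TruSeq kit. In 21 of 21 libraries the separate count files equalled the combined table. Symbols and positions came from RefSeq's GRCm38.p6 table by gene ID, which left 1904 of 27179 IDs without a symbol.

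Genes kept by edgeR's filterByExpr (minimum count 10, minimum total count 15) were tested, 13275 in all, with edgeR 4.0.16 in R 4.3.3: TMM scaling, robust quasi-likelihood test, 1 mean per group over all 21 libraries (14 residual degrees of freedom), two-sided, Benjamini-Hochberg adjustment over all genes within each of 12 comparisons, threshold 0.05. SE is the log2 fold change divided by the root of F. CPM uses TMM-adjusted library sizes. Floors cover counting error only. Replicates differed by far more than counting error, with a chi-square per degree of freedom of 10.2 to 136 between replicates of a group.

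All 34 members may be named, and of each further list up to 3 genes per comparison with the smallest p past the threshold. The 34 genes, the further lists and the marker lists were chosen with earlier results of these data known. Promoter stretches are printed for the windows that hold CACGTG, and the other windows are described in words. A result on 1 gene of the further lists is not reported here.

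Per the series design each heart pool was split into R1, R2 and R3, and same-numbered libraries of a treatment were taken as 1 pool. Over 5021 genes whose average log2 CPM was 5 or more, their deviations from the group means correlated at 0.22 to 0.46 in naive hearts (9 of 9 above 0.1) and 0.17 to 0.69 in CAWS hearts (9 of 9). Alternatives were DESeq2 1.42.0, RLE scaling, total counts only, no filter, only the groups compared, a block for the pool or number, and each library left out in turn.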

Additional observations from a re-analysis of the deposited data

Results flagged for a closer look

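The effect of CAWS on Gla, the alpha-galactosidase, differed between populations in a direct test of the difference. The log2 fold change was 0.88 ± 0.16 (± SE) in R2 and 0.032 ± 0.16 in R3, and their difference, R3 minus R2, was -0.85 (SE 0.23, adjusted p = 0.0477) with edgeR's quasi-likelihood test. All 3 CAWS R2 libraries lay above the naive R2 libraries, while CAWS and naive R3 libraries overlapped. The naive R3 level (18.6, 16 and 17.1 CPM) was already close to the CAWS R2 level (19.6, 16.8 and 20.2 CPM). The difference kept its direction in all 18 alternatives and its side of the threshold in 2 of them, DESeq2 and the fit on only the groups compared.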

How the results depend on the processing

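Over 5508 refits of single genes, 5249 kept their side of the threshold, 168 fell short of it and 91 newly passed. Direction was compared only where the gene passed in either fit, and 0 of those reversed. The number of the 34 genes called moved most in the small sets. DESeq2 called 6 in CAWS R2 (3 in the fit reported), 2 of them lower, 13 in R3 against R2 (8), 1 for the CAWS effect in R3 against R1 (0) and 2 in R3 against R2 (1). RLE scaling, total counts only, no filter and the pool block each called 0 for that last contrast. Total counts only called 11 in R2 against R1 (4), 10 of them lower, and there the median of all genes shifted by -0.11 and the split of all genes from 515 higher and 431 lower to 382 and 812; in R3 against R1 it went from 1659 and 1414 to 1432 and 1846. Against monocytes that scaling shifted the median by 0.18 in R1 and 0.10 in R3. No filter called 1 in CAWS R1 (3) and 2 in R2 against R1. Only the groups compared called 5 in CAWS R1, 14 in CAWS R2, 4 of them lower, 9 in R2 against R1 and 13 in R3 against R2, and over all genes 2784 in CAWS R2 (1365) and 1531 in R2 against R1 (946). For the CAWS effect in R2 against R1, all genes called numbered 7, against 57 with DESeq2, 33 with only the groups compared, 14 with no filter, 11 with total counts only and 15 with the pool block; in R3 against R1 DESeq2 called 479 (300). The cause of these moves was not tested.

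Leaving out each library in turn gave 0 to 2 in CAWS R1, 2 to 3 in CAWS R2, 3 to 7 in CAWS R3, 2 in R2 against R1, 14 to 20 in R3 against R1, 4 to 11 in R3 against R2, 25 to 27, 26 to 29 and 25 to 26 against monocytes, 0 and 0 for the CAWS effects in R2 and R3 against R1, and 0 to 1 in R3 against R2. The 1 call for the CAWS effect in R3 against R2 came without CAWS R2 replicate 1 and was not of Gla. Fits without 1 library hold fewer samples, and a group of 3 then rests on 2 libraries.

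With the pool as a replicate block, 4, 19 and 11 genes were called in R2 against R1, R3 against R1 and R3 against R2, and 0, 0 and 0 for the CAWS effects; calls that this changed are given in the report, and it changed no other. Same-numbered libraries of different treatments were not taken as 1 pool. Their deviations correlated at -0.32 to 0.32, 8 of 27 above 0.1, and with the monocytes at -0.19 to 0.73, 12 of 18. The highest value, between CAWS R3 and the monocytes, exceeded the highest within CAWS hearts (0.69), so correlation alone does not show a shared pool. With the replicate number as a block, 4, 6 and 9 were called in CAWS R1, R2 and R3 and 26, 28 and 26 against monocytes. Depth limits mainly Atp6v0d2 and Gla, whose highest libraries held 18.7 and 20.3 CPM.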
